A study of Mus musculus with 12 samples.

Results

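Cell cycle and DNA replication genes were read out in medullary thymic epithelial cells, the cells of the thymic medulla that display tissue antigens to developing T cells. The 40 genes were taken as listed by name and matched to the gene identifiers of the read count files. All 40 matched 1 identifier each, out of 50600 identifiers in the files. They were split by role into 23 genes of mitosis and G2 and 17 genes of DNA replication and the G1/S transition.

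The 12 libraries came from polyadenylated RNA of primary thymic cells of mice aged 6 to 8 weeks, 6 from mTEC hi (MHCII hi) and 6 from mTEC lo (MHCII lo). All mice carried the strain name B6.B6CB-Psmb11tm1Smta, as Psmb11-/- (here KO) or Psmb11+/+ (here WT). Psmb11 encodes the thymoproteasome subunit of cortical epithelial cells, and the allele is a germline loss that is not limited to the medulla. In each cell type 2 libraries were KO and 2 were WT by both title and source name. The other 2 had labels that conflict: number 1 is WT by title and Psmb11-deficient by source name, and number 3 is KO by title and WT by source name. These 4 libraries entered the comparison of cell types and not that of genotypes. The labels do not say whether the libraries came from separate animals, so the spread behind each p-value is that between libraries and could be technical.

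Levels are in CPM, read counts scaled to the same total in every library. The targeted gene, Psmb11, had 0.846 and 1.30 CPM in both KO libraries of mTEC hi, where WT had 10.3 and 7.53 CPM. For mTEC lo the values were 1.63 and 1.17 CPM with the KO label and 12.2 and 7.51 CPM with the WT label. Libraries with conflicting labels were at 8.15 and 7.10 CPM for number 1 and at 1.12 and 1.25 CPM for number 3, so their Psmb11 level went with the title. Reads in genes ran from 38791960 to 86793594 per library, and no member was at 0 in any library (the fewest reads of a member in a library were 49). The maturity marker Aire was at 1670.5 to 2251.4 CPM in mTEC hi and at 11.1 to 26.0 CPM in mTEC lo, and the epithelial markers Epcam and Krt8 were above 592 CPM in all 12 libraries. CPM values here are scaled by the trimmed mean of M values (TMM). Library sizes were multiplied by 1.087 to 1.128 in mTEC hi and by 0.871 to 0.934 in mTEC lo. Levels of different genes are compared only in TPM, which accounts for transcript length.

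A dividing cell copies its DNA once and then separates the copies. The MCM helicase is loaded on DNA in G1 with the help of Cdc6 and Cdt1 and fires in S phase under cyclin E and Cdk2, while cyclin A and B with Cdk1 drive entry into mitosis, and the anaphase-promoting complex with Cdc20 ends it. Replication genes are classic targets of E2F factors at the start of S phase, and mitotic genes are held down by the DREAM complex in resting cells and switched on later in the cycle by the MuvB complex with B-Myb and FoxM1. In the thymic medulla a cycling, transit-amplifying epithelial population is known that precedes or overlaps the cells that express Aire.

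In mTEC hi against mTEC lo, all 23 mitosis and G2 members rose, from 3.84-fold for Cenpa to 16.3-fold for Bub1. The replication and G1/S members split: 13 of 17 rose, between 1.29-fold for Pcna and 8.72-fold for Rrm2, and Mcm4, Mcm7, Rrm1 and Cdt1 did not pass the test. None of the 40 fell. This makes 36 of 40 members higher at an adjusted p under 0.05 (edgeR quasi-likelihood test), where 44.2% of the 23923 genes tested were called higher and 82.1% were called in either direction. The median log2 change was 3.16 for the mitosis members and 0.92 for the replication members, beside 0.08 for all genes tested. Scaling by library size alone moved the median of all genes to 0.37 and that of the 40 members from 2.69 to 2.98. It called 12907 genes higher and 6347 lower, where TMM called 10569 higher and 9080 lower, and under it all 40 members were called higher. In bulk RNA, more cells in cycle and more RNA per cycling cell cannot be told apart.

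**Figure D1:**
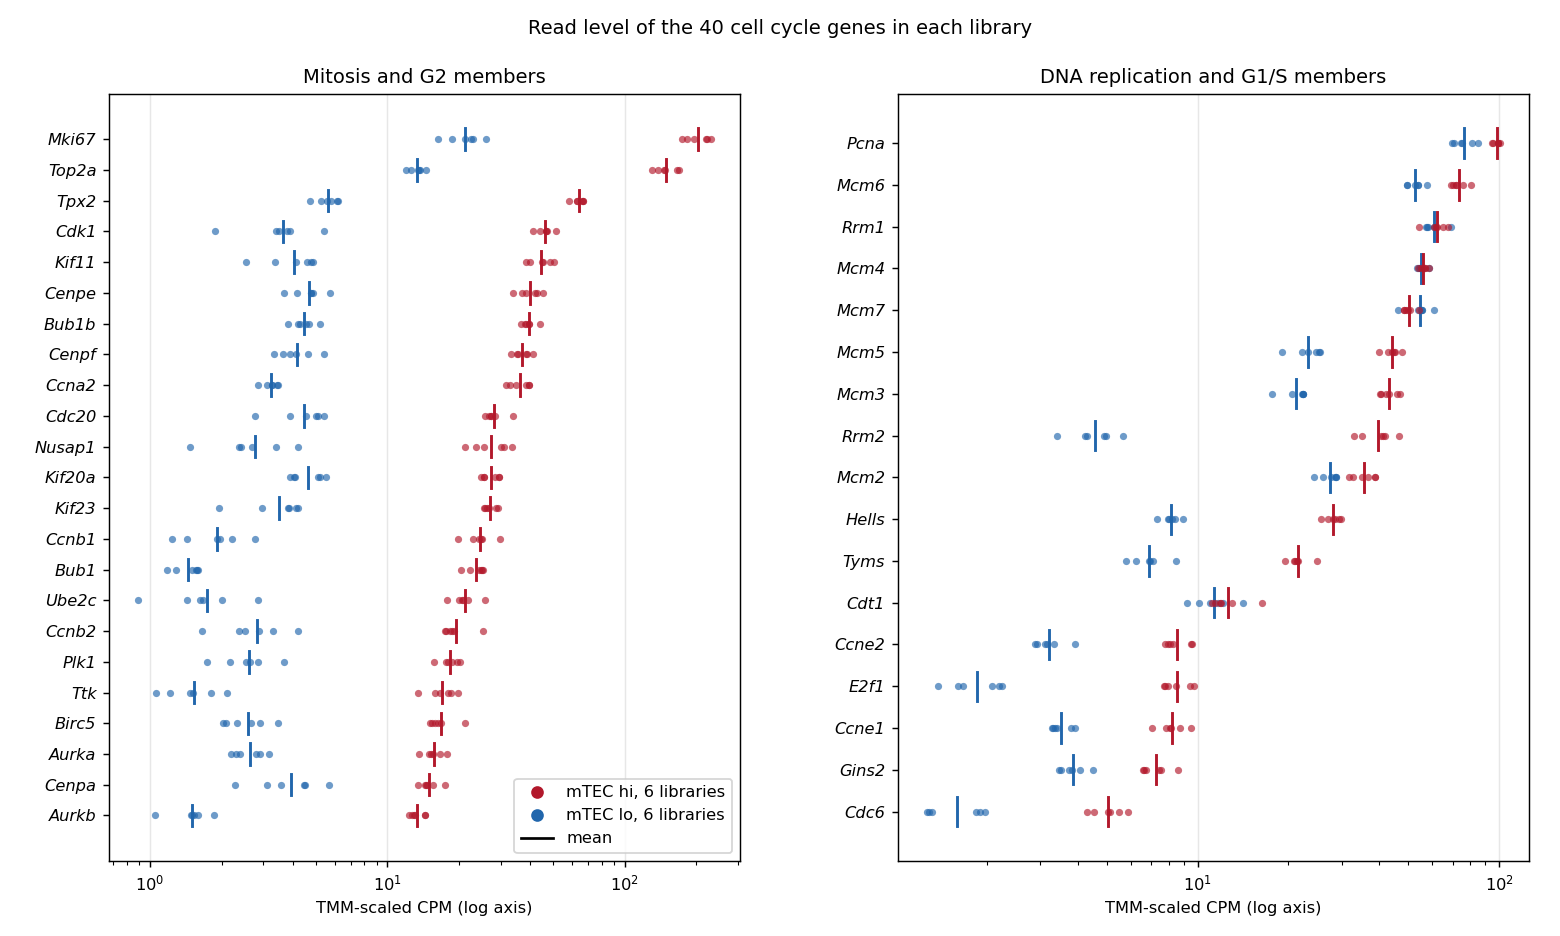
TMM-scaled CPM on a log axis for each of the 40 genes, with 1 point per library (mTEC hi red, mTEC lo blue, 6 each) and a line at each mean. The clouds are apart for all 23 mitosis and G2 genes and overlap for Mcm4, Mcm7, Rrm1 and Cdt1 among the 17 replication genes.

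Summed over the 23 mitosis and G2 members, the libraries of mTEC hi ran from 875.7 to 1018 CPM (median 969.7) and those of mTEC lo from 83.7 to 113.2 CPM (median 103.2). The groups were far apart, with a ratio of means of 9.32. An exact permutation test (two-sided, 6 against 6) gave p = 0.00216, the smallest p this design allows. It was also 0.00216 after adjustment over the 2 sums. All 23 members had groups apart on their own, so this p of their sum followed from them. The 17 replication members summed to 582.7 to 650.9 CPM (median 592.3) in mTEC hi and to 382.2 to 439.1 CPM (median 416.8) in mTEC lo. These groups did not overlap either, but the ratio of means was 1.45 (exact permutation test, two-sided, p = 0.00216). Of all genes tested, 68.7% had groups apart in either direction, so these p-values do not set the members apart from other genes. The replication ratio was 1.77 with library size alone and 1.82 in TPM, and the mitosis ratio was 11.4 and 10.4. In TPM, the mitosis sum of a library was 1.07 to 1.16 times its replication sum in mTEC hi and 0.168 to 0.242 times in mTEC lo.

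Among the proliferation markers, Mki67, whose protein coats mitotic chromosomes, had 173.2, 207.9 and 231.4 CPM as lowest, median and highest value in mTEC hi and 16.4, 21.8 and 26.1 CPM in mTEC lo. Its lowest mTEC hi library was above its highest mTEC lo library, and it rose by a log2 change of 3.26 (SE 0.08, edgeR adjusted p = 4.1e-16). Top2a, the topoisomerase that untangles sister chromatids, stood at 130.3, 147.2 and 169.3 CPM against a median of 13.5 CPM, with the highest at 14.6 CPM. Its log2 change was 3.49 (SE 0.07). The groups of all 36 members that rose were apart in the same way. Of all genes tested, 68.7% had groups apart in either direction, higher or lower in mTEC hi.

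The mitotic engine rose as a block. Cdk1, the kinase that starts mitosis, had 41.0, 46.7 and 51.3 CPM as lowest, median and highest value in mTEC hi and 1.89, 3.65 and 5.42 CPM in mTEC lo. It rose by 3.67 on the log2 scale (SE 0.13), and its partner cyclin Ccnb1 rose by 3.67 as well (SE 0.15), from a median of 1.94 CPM to 24.6 CPM. Ccnb2 rose by 2.80 and Ccna2, the cyclin of S phase and G2, by 3.48. Cdk2, the kinase that works with cyclins A and E, was at a log2 change of -0.18, so that the ratio of Cdk1 to Cdk2 in TPM was 2.94 to 3.99 in mTEC hi and 0.143 to 0.497 in mTEC lo. Cdk2 is not one of the 40 genes, its change passed the test under TMM scaling (edgeR adjusted p = 0.029), and it was at 0.11 with library size alone (adjusted p = 0.23).

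The spindle and checkpoint members rose as well, and Bub1 had the largest change of the 40 genes. This checkpoint kinase at the kinetochore ran from 20.4 to 25.2 CPM (median 24.5) in mTEC hi and from 1.18 to 1.59 CPM (median 1.53) in mTEC lo, a log2 change of 4.03 (SE 0.10). Its partners in the checkpoint, Bub1b (3.14) and Ttk (3.48), rose too. Tpx2, which seeds spindle microtubules and activates Aurora A, rose by 3.51 with the lowest SE of the group (0.06). Kif11, the motor that pushes spindle poles apart, rose by 3.47, and Kif23 (2.96) and Nusap1 (3.33), which bundle microtubules, rose as well. The Aurora kinases Aurka (2.57) and Aurkb (3.15), Polo kinase Plk1 (2.82) and the passenger protein Birc5 (2.71) also rose, all by over 2 on this log2 scale.

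Of the kinetochore and centromere genes, Cenpe, a kinetochore motor, and Cenpf rose by 3.09 and 3.16. Cenpa, the histone H3 variant that marks centromeres and is kept through the whole cycle, had the smallest change of the mitosis members, at 1.94 (SE 0.16). It ran from 13.5 to 17.4 CPM (median 14.6) in mTEC hi and from 2.27 to 5.68 CPM (median 4.02) in mTEC lo, so its groups were still apart. Ube2c, the ubiquitin-conjugating enzyme of the anaphase-promoting complex, rose by 3.60 (SE 0.17) and Cdc20, its mitotic activator, by 2.67 (SE 0.12).

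Kif20a, a motor of cytokinesis, rose by 2.55 (SE 0.09), and its value depended on how reads were assigned. In the annotation, 29.3% of its exon bases also lie in exons of another gene, and with the estimated counts of RSEM, which share out such reads, its log2 change was 1.62. Ccna2 shared 12.5% of its exon bases and was at 2.78 with RSEM counts. Gins2 shared 67.3% and was at 0.61 with RSEM counts against 0.91 with read counts, so the levels of these 3 genes are uncertain. Ube2c (22.8%), Ccne2 (17.4%) and Mcm7 (12.6%) also shared over 10% of their exon bases. With RSEM counts their log2 changes were 3.785, 1.45 and -0.045. Of the 40 members, 6 share over 10% and 30 share no exon base with another gene. The median size of the difference between both kinds of count was 0.09 on the log2 scale.

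**Figure D2:**
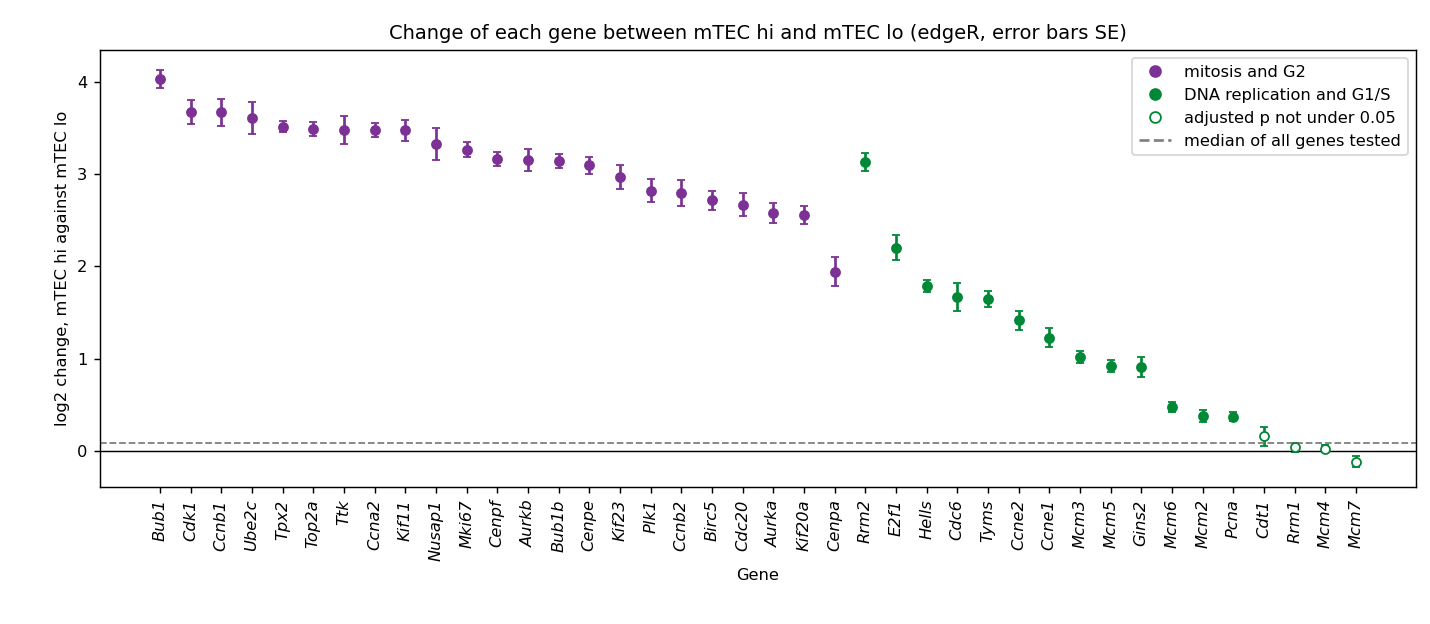
log2 change of each gene in mTEC hi against mTEC lo with its SE (edgeR, 12 libraries), ordered by size within the 23 mitosis and G2 genes (purple) and the 17 replication and G1/S genes (green), open where the adjusted p was not under 0.05. Mitosis genes lie between 1.94 and 4.03, and replication genes spread from Mcm7 at -0.12 to Rrm2 at 3.12.

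Replication members ranged from genes near the background to genes that moved like the mitotic ones. In the MCM helicase, whose 6 subunits form 1 ring, the subunits had unequal changes under TMM scaling, and all 6 were called higher with library size alone. Mcm3 rose by 1.02 (SE 0.06) and Mcm5 by 0.92 (SE 0.07), while Mcm6 rose by 0.48 and Mcm2 by 0.38. Mcm4 had 53.6, 56.3 and 58.5 CPM as lowest, median and highest value in mTEC hi and 53.4, 54.5 and 58.7 CPM in mTEC lo, with the groups fully overlapping, a log2 change of 0.03 (SE 0.04, edgeR adjusted p = 0.58). With library size alone it was at 0.31 (edgeR adjusted p = 9.9e-07), and with RSEM counts it passed the test at 0.13 (edgeR adjusted p = 0.017). In TPM the groups of Mcm4 were apart, at 23.25 to 26.19 TPM in mTEC hi and 17.48 to 20.15 TPM in mTEC lo. Mcm7 had 48.2, 49.6 and 54.3 CPM against 46.1, 55.1 and 60.8 CPM. Its log2 change was -0.12 (SE 0.06, edgeR adjusted p = 0.073), and this sign turned with the scaling: library size alone gave 0.17 (adjusted p = 0.0080). Without the mTEC lo WT library number 3, Mcm7 passed the test at -0.18 (adjusted p = 0.0039), and without the mTEC hi KO library number 1 at -0.14 (adjusted p = 0.042). Summed over the 6 subunits, the level was 287.6 to 322.0 CPM in mTEC hi and 210.7 to 249.3 CPM in mTEC lo. The ratio of means was 1.29, and it was 1.58 with library size alone and 1.56 in TPM.

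The subunits of ribonucleotide reductase, which makes the deoxynucleotides for replication, had unequal changes. Rrm2, the small subunit that is made in S phase, had 33.1, 40.7 and 46.6 CPM as lowest, median and highest value in mTEC hi and 3.41, 4.59 and 5.66 CPM in mTEC lo, and rose by 3.12 (SE 0.10, edgeR adjusted p = 8.1e-15). Rrm1, the large subunit, had 54.3, 62.1 and 67.8 CPM against 57.2, 59.3 and 69.0 CPM, a log2 change of 0.04 (SE 0.05, edgeR adjusted p = 0.52) with overlapping groups. The call and the sign of Rrm1 depended on the processing. With library size alone it was at 0.33 (edgeR adjusted p = 2.2e-05) and with RSEM counts at 0.13 (adjusted p = 0.031). Without the 4 libraries numbered 1 it was at -0.02 (adjusted p = 0.81). In TPM, Rrm2 was 0.833 to 1.11 times Rrm1 in mTEC hi and 0.0704 to 0.143 times in mTEC lo. Tyms, which makes thymidylate, rose by 1.64 (SE 0.08).

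Licensing and G1/S genes were between these extremes. Cdc6, the helicase loader, rose by 1.66 (SE 0.15), from a median of 1.58 CPM in mTEC lo to 5.09 CPM in mTEC hi. Cdt1, the other loader, had 11.2, 11.9 and 16.4 CPM as lowest, median and highest value in mTEC hi and 9.23, 11.3 and 14.1 CPM in mTEC lo, at 0.16 (SE 0.11, edgeR adjusted p = 0.19). Its inhibitor geminin, Gmnn, which is not among the 40 genes, rose by 1.45, and the ratio of Cdt1 to Gmnn in TPM was 0.360 to 0.481 in mTEC hi and 0.798 to 1.29 in mTEC lo. Cdt1 also passed the test, at 0.30, in the 8 libraries with 1 genotype (adjusted p = 0.040) and, at 0.44, with library size alone.

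Cyclin E genes Ccne1 (1.22) and Ccne2 (1.41) rose, and so did E2f1 (2.20, SE 0.14), the factor that switches on S phase genes. Hells, a chromatin remodeller used in DNA methylation, rose by 1.79. Pcna, the sliding clamp of DNA polymerase, had 94.7, 99.4 and 100.7 CPM as lowest, median and highest value in mTEC hi and 69.9, 74.8 and 85.3 CPM in mTEC lo. Its groups were apart, but its rise of 0.37 (SE 0.05) was the smallest among the 36 members called under TMM scaling. Tested against a minimum change of 1.5-fold, Pcna, Mcm2 and Mcm6 no longer passed and 33 members remained.

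Measured per transcript length, the most abundant member was Pcna in both cell types, at 150.4 ± 4.09 TPM (SD, n = 6) in mTEC hi and 91.1 ± 4.02 TPM (SD, n = 6) in mTEC lo. The order below it changed. In mTEC hi, Cdk1 was in place 2 at 90.3 ± 9.24 TPM and Top2a in place 3 at 68.4 ± 5.71 TPM, a gap wider than both SDs. In mTEC lo the places after Pcna were held by Mcm7 at 41.0 ± 1.85 TPM, Gins2 at 28.1 ± 3.34 TPM and Rrm1 at 26.9 ± 3.27 TPM, and the last 2 lay within 1 SD of each other. Cdk1 was there in place 13, at 5.69 ± 2.99 TPM, and the lowest mean was that of Ttk at 0.667 ± 0.290 TPM, with Cenpf, Bub1, Cdc6, E2f1 and Cenpe within 1 SD of it. Gins2 is uncertain in this order because of its shared exons, and Mcm7 shares 12.6% of its exon bases.

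RefSeq promoter windows were on hand for 33 of the 40 members (build GRCm38.p6, from 250 bases before to 50 after the start of transcription), 19 of them mitotic and 14 of replication. Each window was searched on both strands for E2F sites (TTTCCCGC, TTTGGCGC, TTTGCCGC or TTTCGCGC), for the CCAAT box (CCAAT) and for the cell cycle homology region, CHR (TTTGAA or TTCGAA), the element that the MuvB core binds. A match is a match of letters and not a measured binding site. Letters of a CHR were in 15 of 19 mitotic windows and 2 of 14 replication windows, where 19.4% of the windows of 27025 genes held them. Letters of an E2F site were in 1 of 19 mitotic windows (Cdk1) and in 7 of 14 replication windows (Mcm3, Mcm5, Mcm6, Mcm7, Cdc6, Cdt1 and Hells), beside 2.32% of all. The CCAAT box was in 17 of 19 mitotic windows and 8 of 14 replication windows, beside 37.9% of all. In the 150 bases before the start alone, CHR letters were in 6 of 19 mitotic and 1 of 14 replication windows, beside 9.89% of all. E2F letters were there in 1 of 19 and 4 of 14, beside 1.26% of all, and the CCAAT box in 17 of 19 and 7 of 14, beside 25.3% of all. Of the 4 members that did not pass the test under TMM scaling, Cdt1 and Mcm7 hold E2F letters, Rrm1 does not, and Mcm4 had no window. Mcm5 and Mcm6, which rose, hold them too.

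Stretches from 150 bases before the start to 20 bases after it (4 for Cdk1 and 17 for Rrm2) show these letters in 3 mitotic members, in 2 replication members and in both subunits of ribonucleotide reductase. They run 5′ to 3′ on the strand of the gene, with the letters of all 3 motifs in capitals. The window of Cdk1 is chr10:69352909-69353062 (minus strand), that of Ccnb2 is chr9:70421535-70421704 (minus strand) and that of Bub1 is chr2:127831840-127832009 (minus strand). Mcm6 is at chr1:128359686-128359855 (minus strand), Mcm5 at chr8:75109359-75109528 (plus strand), Rrm1 at chr7:102441545-102441714 (plus strand) and Rrm2 at chr12:24708104-24708270 (plus strand).
Cdk1: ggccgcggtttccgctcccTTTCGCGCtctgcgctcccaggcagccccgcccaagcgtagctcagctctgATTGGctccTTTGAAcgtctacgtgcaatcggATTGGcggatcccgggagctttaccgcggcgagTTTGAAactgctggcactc
Ccnb2: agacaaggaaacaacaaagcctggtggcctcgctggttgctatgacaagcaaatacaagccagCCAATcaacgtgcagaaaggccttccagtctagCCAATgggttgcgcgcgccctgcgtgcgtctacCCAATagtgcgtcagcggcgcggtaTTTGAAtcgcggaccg
Bub1: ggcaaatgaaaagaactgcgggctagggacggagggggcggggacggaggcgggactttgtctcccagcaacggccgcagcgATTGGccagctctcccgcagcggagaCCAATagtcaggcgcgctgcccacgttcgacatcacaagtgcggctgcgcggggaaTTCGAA
Mcm6: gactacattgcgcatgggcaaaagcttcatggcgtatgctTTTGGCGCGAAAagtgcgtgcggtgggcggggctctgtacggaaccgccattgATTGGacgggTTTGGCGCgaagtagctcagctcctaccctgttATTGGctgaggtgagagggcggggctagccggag
Mcm5: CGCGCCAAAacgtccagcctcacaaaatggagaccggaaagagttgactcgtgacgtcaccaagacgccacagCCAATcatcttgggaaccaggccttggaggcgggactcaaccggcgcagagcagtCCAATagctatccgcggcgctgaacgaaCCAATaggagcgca
Rrm1: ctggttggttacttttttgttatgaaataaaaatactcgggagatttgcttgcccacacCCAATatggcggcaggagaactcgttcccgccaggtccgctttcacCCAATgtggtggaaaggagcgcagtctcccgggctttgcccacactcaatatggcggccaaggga
Rrm2: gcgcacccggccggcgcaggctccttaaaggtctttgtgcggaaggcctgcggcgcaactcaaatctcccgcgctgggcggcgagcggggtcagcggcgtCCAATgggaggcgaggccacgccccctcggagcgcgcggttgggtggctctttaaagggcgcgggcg
In Ccnb2, 3 CCAAT boxes stand at positions -87, -54 and -21 from the start, with a CHR at position 5. Bub1 has CCAAT boxes at -68 and -42 and a CHR at position 15. Cdk1 is the mitotic window with all 3 kinds of letters, an E2F site at -131, 2 CHRs at -71 and -15 and CCAAT boxes at -80 and -48. In Mcm6, E2F letters stand at -110, at -106 on the other strand and at -47. Rrm2, which rose 8.72-fold, holds 1 CCAAT box at -50 and neither of the other motifs, and Rrm1 holds CCAAT boxes at -91 and -45.

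The other genes of the cycle give the setting. These lists were drawn up with earlier results known and share no gene with the 40 members. Their counts stand beside those of all 23923 genes tested, of which 10569 rose and 9080 fell. Of 36 other mitosis genes, 34 rose and 1 fell, with a median log2 change of 2.87. Cdc25c, the phosphatase that activates Cdk1, rose by 4.60 (SE 0.17), from a median of 0.839 CPM to 20.2 CPM, and Aspm, a spindle pole protein, by 4.11 (SE 0.08). Cdc25b, a relative of Cdc25c, fell by 0.27 under TMM scaling and was at 0.01 with library size alone. The securin gene Pttg1 was at 0.00 (edgeR adjusted p = 0.96) and at 0.29 with library size alone (adjusted p = 0.00015); it was named after its values were seen.

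Among 32 other replication genes, 24 rose and 3 fell, with a median of 0.56, lower than that of the mitosis list as in the members. Pclaf, a partner of PCNA, rose by 3.27 (SE 0.13) and Mcm10, which helps to open the helicase, by 3.05 (SE 0.13). Rfc3, a clamp loader subunit, fell by 0.74 (SE 0.07), and Gins4 (-0.33) and the maintenance methyltransferase Dnmt1 (-0.32) also fell under TMM scaling. With library size alone the last 2 were at -0.04 each and did not pass, and 29 of the list rose and 1 fell. Of 20 genes of the S phase checkpoint and repair, 16 rose and 1 fell, with a median of 1.02. Clspn, which relays the signal from stalled forks, rose by 3.75 and Fancd2, a repair protein, by 3.56. Wee1, the kinase that holds back Cdk1, was lower by TMM at -0.40 and at -0.11 with library size alone (adjusted p = 0.076).

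Structural complexes that also serve outside mitosis had calls in both directions, as did all genes tested (44.2% higher). Of 13 condensin and cohesin genes 7 rose and 4 fell. The risers were led by the condensin subunits Ncapg (3.55) and Ncaph (3.13), and the cohesin subunit Rad21 (0.41) was among them. The 4 that fell were other cohesin genes, Stag1 by 1.07, Smc3 by 0.54, Smc1a by 0.50 and Stag2 by 0.37, and with library size alone Stag2 was at -0.09 and did not pass. In the anaphase-promoting complex 5 of 15 genes rose and 9 fell, with a median of -0.40 (-0.12 with library size alone, 7 up and 8 down). Its subunits Anapc5 and Anapc2 were lower by log2 changes of -0.81 and -0.78. The inhibitor Fbxo5 (0.39), the G1 activator Fzr1 (0.36), the conjugating enzyme Ube2s (0.35) and the subunit Cdc23 (0.32) were higher.

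Of 21 cell cycle transcription factors, 10 rose and 8 fell, with a median of 0.12. These shares were near those of all 23923 genes tested, of which 10569 rose and 9080 fell, with a median of 0.08. The repressor E2f7 rose by 4.13 (SE 0.13) and the activator E2f2 by 3.03 (SE 0.09). E2f6 (-1.35), a repressor that acts with Polycomb proteins, and the E2F partner Tfdp2 (-1.23) fell, as did the MuvB subunit Lin37 (-0.61) and Myc (-0.52). Of D cyclins and G1 kinases, 3 of 8 rose and 5 fell (3 up and 3 down with library size alone, where the median turned from -0.26 to 0.02). Cyclin D2, Ccnd2, ran from 410.1 to 435.7 CPM in mTEC hi and from 91.7 to 110.6 CPM in mTEC lo and rose by 2.07 (SE 0.05). Ccnd1 was at -0.61 at the same time, so the ratio of Ccnd2 to Ccnd1 in TPM was 2.80 to 3.48 in mTEC hi and 0.441 to 0.569 in mTEC lo. Skp2, which marks CDK inhibitors for decay, rose by 0.91 and Cdk6 by 0.17.

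Of 8 inhibitors of cyclin-dependent kinases, 5 rose and 2 fell, in a comparison where 44.2% of all genes were called higher. Cdkn1c (p57) ran from 72.2 to 90.3 CPM in mTEC hi and from 17.7 to 21.0 CPM in mTEC lo, a log2 change of 2.05 (SE 0.07). Cdkn2b (p15) rose by 1.19. Cdkn2d fell by 0.92, and Cdkn1b (p27) fell by 0.33 under TMM scaling and was at -0.05 with library size alone. Cdkn1a (p21) was at 0.03 (edgeR adjusted p = 0.65) and, with library size alone, at 0.31 (adjusted p = 5.4e-05). With RSEM counts it was at 0.13 (edgeR adjusted p = 0.041).

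Among 20 relatives of the members, 14 rose and 4 fell. Plk5 rose by 3.23 and Cenpi by 2.91. Plk2, a Polo kinase linked to stress and to neurons, fell by 2.14 (SE 0.09), where Plk1 rose by 2.82. Top2b, the paralog of Top2a that non-dividing cells also use, fell by 0.73, and the ratio of Top2a to Top2b in TPM was 1.51 to 1.97 in mTEC hi and 0.0767 to 0.142 in mTEC lo. Mcm9, an MCM relative of DNA repair, fell by 0.59, and Bub3 was at -0.14 (edgeR adjusted p = 0.0053) under TMM and at 0.14 with library size alone.

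**Figure D3:**
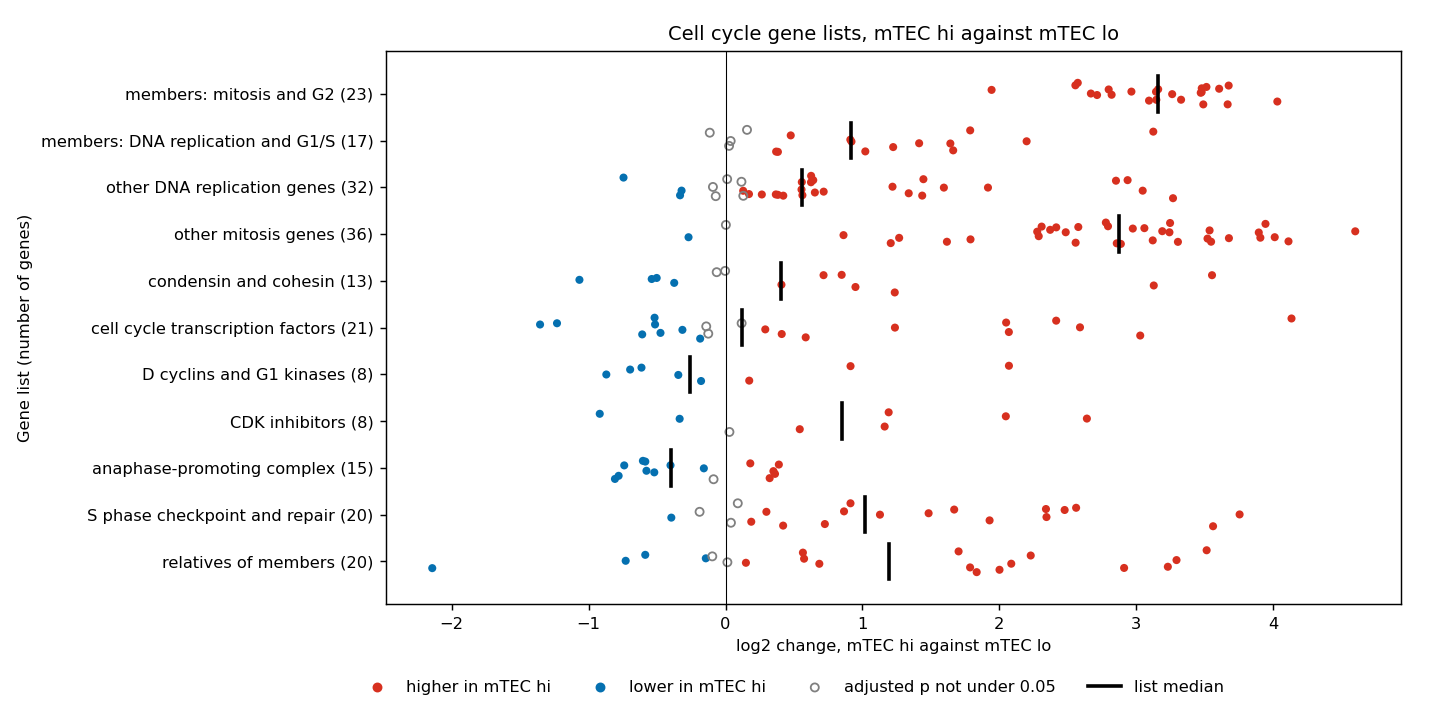
log2 change in mTEC hi against mTEC lo (edgeR, TMM scaling) of the 40 members and of 9 other cell cycle lists, with 1 point per gene, coloured where the adjusted p was under 0.05, and a bar at each list's median. Medians of both mitosis lists are at 3.16 and 2.87, and that of the anaphase-promoting complex is at -0.40.

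Markers of other cells also differed between the cell types, in a comparison where 44.2% of all genes were called higher. The summed level of 14 thymocyte genes was 191.1 to 340.9 CPM in mTEC hi and 81.4 to 157.3 CPM in mTEC lo (8 rose and 1 fell), and none of the 14 was at 0 in any library. For 11 genes of dendritic cells and macrophages it was 555.1 to 604.0 CPM against 73.2 to 99.1 CPM (all 11 rose). For 6 B cell genes it was 69.0 to 73.5 CPM against 11.5 to 17.7 CPM, and for 6 erythroid genes 18.6 to 22.3 CPM against 1.29 to 4.95 CPM (all 6 of each list rose). In the erythroid list 3 genes and in the B cell list 1 gene had a library at 0. Other lists did not run that way. The sum of 8 genes of cortical thymic epithelial cells was 974.5 to 1025.8 CPM in mTEC hi and 1775.7 to 2208.5 CPM in mTEC lo (4 rose and 3 fell). Its ratio of means was 0.50 in CPM and 0.87 in TPM, and log2 changes of its genes ran from -3.08 to 3.40. For 8 genes of fibroblasts and pericytes it was 851.7 to 902.4 CPM against 916.0 to 1038 CPM (3 rose and 4 fell), an order that turned with library size alone (means of 958.0 against 870.3 CPM). For 6 endothelial genes it was 41.3 to 63.9 CPM against 43.7 to 69.7 CPM (0 rose and 3 fell). The part of any of these lists in the rise of the members was not tested. The 4 libraries numbered 1 had the highest thymocyte sums in mTEC hi and in mTEC lo. Without them, 36 members rose and none fell, beside 10481 of 24248 genes called higher. The thymocyte sums of the remaining libraries still differed, at 191.1 to 205.8 CPM in mTEC hi and 81.4 to 118.5 CPM in mTEC lo. Leaving those 4 libraries out is therefore no test of the part of thymocyte genes in the rise.

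The rise was present in both genotypes. In the 2 KO libraries of each cell type 36 of 40 members rose (39.4% of 26642 genes were called higher), with a median log2 change of 2.65. In the 2 WT libraries of each cell type 36 of 40 rose too (38.4% of genes were called higher), with a median of 2.83. The difference between both was tested as an interaction, which called no member and no gene (0% of 26642, edgeR). At an unadjusted p under 0.05 the edgeR interaction picked 1174 genes and 1 member, Kif20a, with a log2 difference of 0.47 (edgeR adjusted p = 0.9998). DESeq2 called 0 members and 4 genes for it.

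For genotype, no member passed the test in either cell type. In mTEC hi, 1 of 26642 genes was called (0.00375%), Psmb11 itself, and 0 members (edgeR). None of the 40 had an unadjusted p under 0.05 there, among 918 genes that did, and DESeq2 called 0 members and 3 genes. Of the 26642 genes tested, 13680 were above WT. The median log2 change of the members was 0.10, with 31 above and 9 below WT. That lean rested on 1 library: without the KO library number 1, 14 of 40 were above WT and the median was -0.03. In mTEC lo, 4 of 26642 genes were called (0.015%) and 0 members (edgeR). At an unadjusted p under 0.05 there were 6 members and 3010 genes, and DESeq2 called 0 members and 147 genes. The median of the members was 0.15, with 29 members above WT, beside 12669 of 26642 genes. It was 0.01 without the WT library number 3.

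The lowest p in mTEC hi was that of Birc5, the survivin gene, with 21.2 and 16.3 CPM in KO, 15.1 and 15.4 CPM in WT, and 15.8 and 16.8 CPM in the libraries with conflicting labels. Its log2 change was 0.30 (SE 0.16), which did not pass in edgeR. Kif20a followed at 0.23 (29.4 and 29.4 CPM in KO, 25.4 and 24.8 CPM in WT, with 25.5 and 28.5 CPM in numbers 1 and 3 of the conflicting labels). Mki67 was at -0.22 (182.0 and 173.2 CPM in KO, 219.8 and 196.0 CPM in WT). The conflicting libraries had 221.2 CPM for number 1 and 231.4 CPM for number 3, and number 3, KO by title, was the highest of all 6. The signs of the 3 genes differ.

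In mTEC lo, Birc5 again had the lowest p, with 3.46 and 2.92 CPM in KO, 2.09 and 2.03 CPM in WT and 2.66 and 2.32 CPM in the libraries with conflicting labels, at 0.62 (SE 0.19, edgeR adjusted p = 0.27). Ccnb2 was at 0.76 (SE 0.24, adjusted p = 0.28), with 4.21 and 2.88 CPM in KO, 2.52 and 1.65 CPM in WT, and 3.30 and 2.37 CPM in numbers 1 and 3 of the conflicting labels. Cdk1 was at 0.71 (SE 0.24, adjusted p = 0.30), with 5.42 and 3.90 CPM in KO, 3.79 and 1.89 CPM in WT, and 3.39 and 3.51 CPM in numbers 1 and 3 of the conflicting labels. The 3 genes were named for their low p, so the order of their KO and WT values is a description. The widest values belonged to the KO library number 1, the highest for 13 of 23 mitosis members, and to the WT library number 3, the lowest for 14 of 23. With no filter on low counts 4 members were called higher in KO (Cdk1, Ccnb2, Kif11 and Ube2c), beside 291 of 40796 genes (0.713%). Without the KO library number 2, 2 were (Ccnb2 and Ube2c), beside 94 of 28605 genes (0.329%). That fit leaves KO library number 1 alone in its group, which is assumed to vary like the libraries of the other groups.

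**Figure D4:**
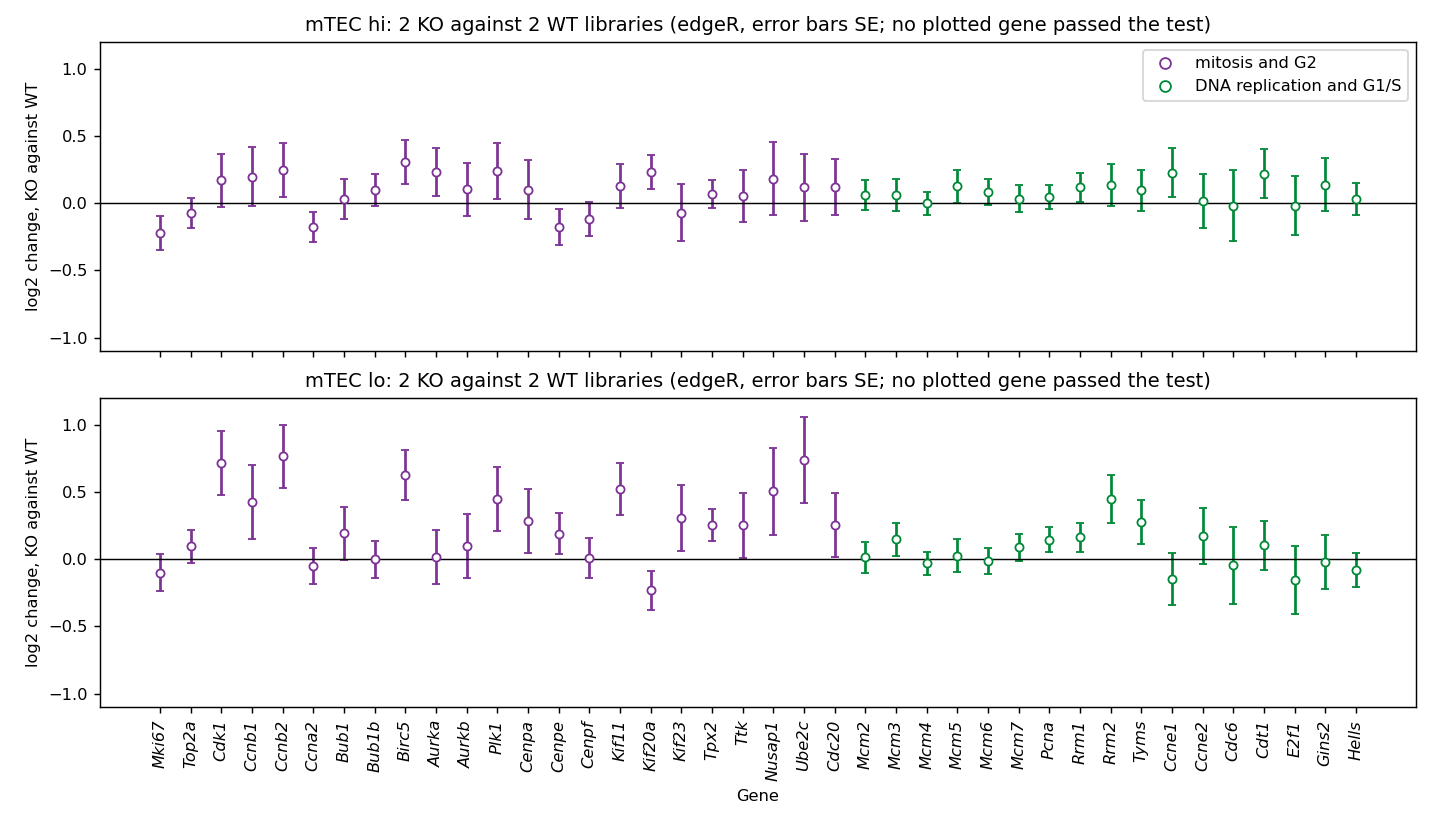
log2 change of each of the 40 genes in KO against WT with its SE (edgeR, 2 against 2 libraries), in mTEC hi above and mTEC lo below. All values lie between -0.22 and 0.30 in mTEC hi and between -0.23 and 0.76 in mTEC lo, and none passed the test.

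Thymocyte genes leaned the same way as the members. Their summed level in mTEC hi was 340.9 CPM in the KO library number 1, 205.8 CPM in KO number 2, and 197.5 and 195.0 CPM in WT. The mTEC lo sums were 157.3 and 118.5 CPM in KO and 92.4 and 81.4 CPM in WT. The KO library number 1 of mTEC hi was also the highest for 14 of 23 mitosis members, 14 of 17 replication members and 13 of 14 thymocyte genes. In mTEC lo the KO library number 1 was the highest for 12 of 14 thymocyte genes, 13 of 23 mitosis members and 2 of 17 replication members. Whether thymocyte RNA has a part in the genotype values of the members was not tested. Without the 4 libraries numbered 1, which leaves 1 KO library in each cell type, 13 members were above WT in mTEC hi and 27 in mTEC lo, and none was called.

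**Figure D5:**
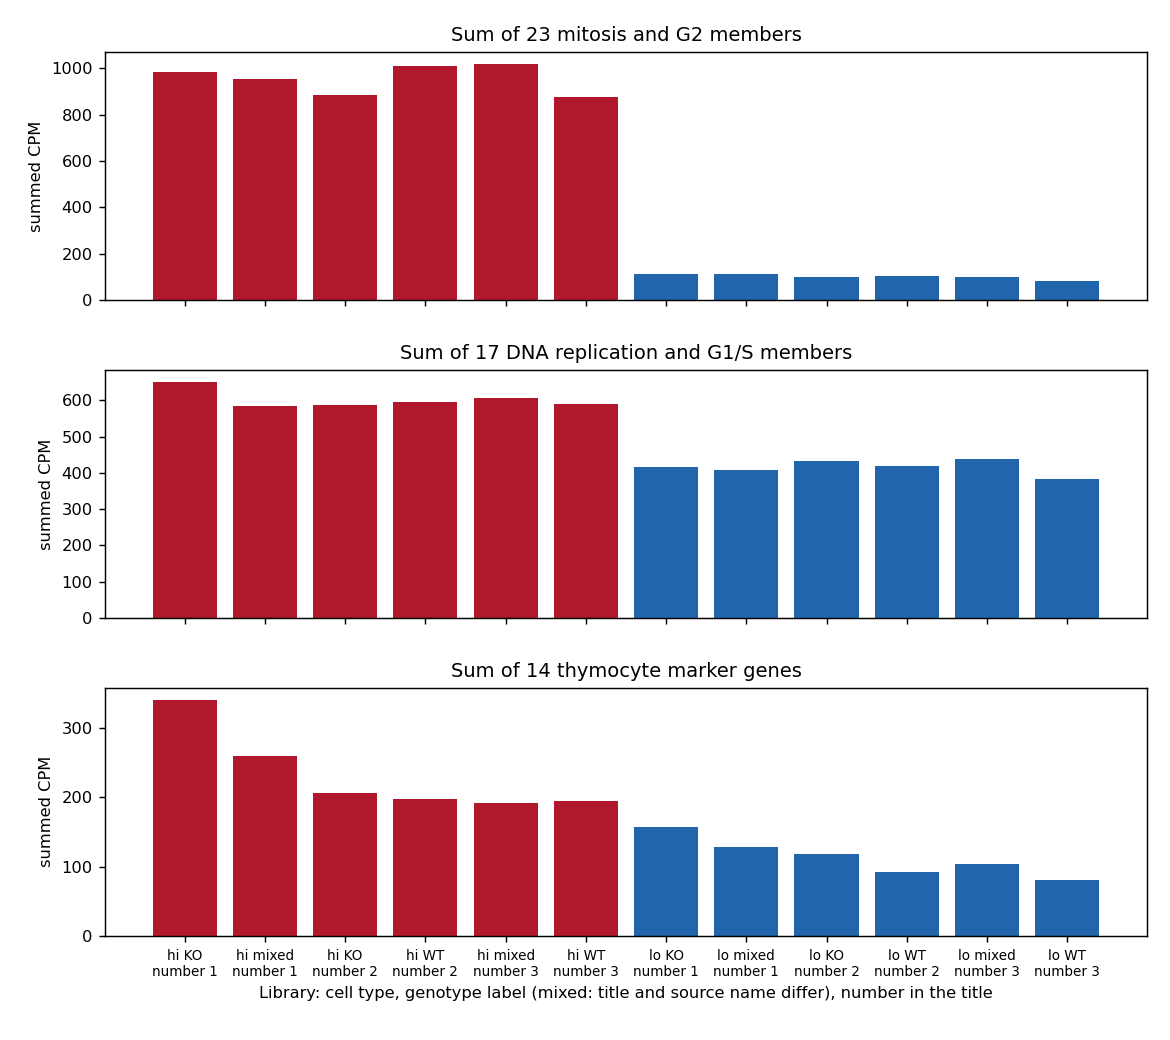
Summed TMM-scaled CPM in each of the 12 libraries (mTEC hi red, mTEC lo blue) for the 23 mitosis members, the 17 replication members and 14 thymocyte markers, from 0. The mitosis sum stays between 875.7 and 1018 CPM in mTEC hi and between 83.7 and 113.2 CPM in mTEC lo, while the thymocyte sum is highest in the KO library number 1 of each cell type.

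Spread between libraries differed by gene. In mTEC hi the coefficient of variation over 6 libraries ran from 2.45% for Pcna to 17.2% for Nusap1. In mTEC lo it ran from 3.40% for Mcm4 to 37.3% for Ube2c, whose level there was 0.889 to 2.84 CPM.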

How the data were processed

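RNA sequencing reads of 12 libraries were processed by the authors with CASAVA 1.8.2, STAR 2.5.1b and RSEM 1.2.28, per the submitters' processing notes, which name the build GRCh38 although the identifiers are of mouse genes; the counting tool was not given in the sources used here. Deposited by the authors were read counts per gene, of which the column that ignores strand was used, and RSEM tables with expected counts and TPM. Of all reads listed in the deposited count files, 21.5% to 27.8% had no single gene and stayed out of library sizes and tests. Identifiers were matched to symbols with GENCODE M21 (GRCm38): 50376 of 50600 matched. Reads from overlapping genes cannot be told apart by strand here, since 1 strand held 50.4% to 50.8% of the reads and the other the rest.

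Here the counts were filtered (filterByExpr, minimum count 10, total 15), scaled by TMM and tested with edgeR 4.0.16 (quasi-likelihood F test, R 4.3.3, Benjamini-Hochberg over all genes tested, threshold 0.05). Cell types were compared over 12 libraries with genotype label as a covariate, genotypes over the 8 libraries whose labels name 1 genotype. Standard errors are the log2 change divided by the root of F. CPM are counts over TMM-scaled library size. RSEM counts were rounded and used as an alternative, TPM for levels between genes. Sums over members were compared by an exact permutation test. Both fits were tested on simulated data. Of changes of 1.5-fold, 90% were recovered between cell types, 66% between genotypes in mTEC hi and 72% in mTEC lo. At 2-fold the shares were 100%, 92% and 88%. The interaction and the contrasts of cell types within a genotype were not simulated. No pair of libraries of a cell type was alike within counting noise (lowest chi-square per gene 7.77, where noise gives about 1).

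The members and gene lists were chosen with earlier results of these data known. All 40 members are accounted for. From each other list the text names the 2 called genes with the largest change and a mean of at least 2 CPM, up to 4 called genes of the sign opposite to the list's median, for genotype the 3 members with the lowest p in each cell type, and Psmb11. Other genes were named after their values were seen: Pttg1, Cdkn1a, Gmnn, Cdk2, Ccnd1, Rad21, Aire, Epcam and Krt8. Alternatives were RLE and library size scaling, DESeq2 1.42.0, no filter, RSEM counts, each library left out, a replicate block, other genotype labels, 8 libraries and a minimum change of 1.5-fold; leaving out the 4 libraries numbered 1 was added after seeing the data.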

Additional observations from a re-analysis of the deposited data

Results flagged for a closer look

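In 8 of 84 sets of 6 libraries (40 members and 2 sums in 2 cell types), 1 library stood far from the other 5, with a gap that was a larger share of the whole range than Dixon's critical value for 6 allows. Chance alone flags about 1 in 20, or 4.2 of 84, and members of 1 library are not independent. The KO library number 1 of mTEC hi was the high one in 6 of the 8. It had 25.3 CPM of Ccnb2 where the other 5 had 17.4 to 19.0, 44.0 CPM of Bub1b against 36.6 to 39.3, and 21.2 CPM of Birc5 against 15.1 to 16.8. It had 33.8 CPM of Cdc20 against 25.8 to 28.4, 16.4 CPM of Cdt1 against 11.2 to 13.0, and a replication sum of 650.9 CPM against 582.7 to 606.1. In mTEC lo, Mcm4 was at 58.7 CPM in the library number 3 with conflicting labels against 53.4 to 55.4, and Rrm1 was at 69.0 CPM in the KO library number 2 against 57.2 to 61.0.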

How the results depend on the processing

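Between mTEC hi and mTEC lo, 33 to 40 of the 40 members were called over all alternatives, and 36 or 37 with each library left out in turn. Of 23923 genes tested, 19649 were called, and 12958 against a minimum change of 1.5-fold. Among the cell cycle genes named, signs turned for Mcm7 (0.17), Cdc25b (0.014), Bub3 (0.14) and Cdk2 (0.11) with library size alone, which raises the median change of all genes, and for Rrm1 (-0.019) without the 4 libraries numbered 1, where the cause was not tested. In mTEC lo, KO against WT, 0 members were called, 4 with no filter, and 0 to 2 with each library left out. The genes called there were 4, against 660 with no filter, 147 by DESeq2, 9 with library size alone, 6 with RSEM counts, 2 with genotype from the source name, 258 without the 4 libraries numbered 1, and 1 to 323 with each library left out (323 of 28605 without the KO library number 2). In mTEC hi 1 gene was called, against 42 with no filter, 3 by DESeq2, 3 with RSEM counts, 0 with genotype from the source name, and 0 to 2 with each library left out. The interaction called 0 genes, against 141 with no filter, 4 by DESeq2, 2 with RSEM counts, 36 without the 4 libraries numbered 1, and 0 to 49 with each library left out. Psmb11 levels went with the title. With genotype from the title, 3 genes were called in mTEC lo, 1 in mTEC hi and 0 for the interaction. None of them was a member. No cause was tested.

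With the replicate block the member counts stayed at 36 for cell type and 0 for genotype in mTEC hi, in mTEC lo and for the interaction. Over all genes the block called 45 in mTEC lo and 7 in the interaction. Members above WT with the block were 11 in mTEC hi (31 without it) and 18 in mTEC lo (29 without it). Among the 8 libraries with 1 genotype, number 1 is only KO and number 3 only WT. With the block, the genotype effect shared by both cell types thus rests on the libraries numbered 2. The counts with and without it are not a like comparison. Libraries of the same title in mTEC hi and mTEC lo deviated together weakly (r from 0.01 to 0.12 across genes, 3 of 6 libraries closest to their own title). For the other title of the same number r was -0.06 to 0.06. These values do not settle whether the titles pair the samples, and the main fits do not pair them.

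For genotype, the SE of a member in mTEC lo was up to 0.32 on the log2 scale, for Nusap1 and Ube2c. Promoter windows were searched for 33 of 40 members.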
